A study of Mus musculus with 16 samples.

Results

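Retinoic acid (RA) is a hormone-like derivative of vitamin A. The 9 genes described here make, carry or remove it: Stra6, Rdh10, Aldh1a2, Dhrs3, Crabp1, Crabp2, Cyp26a1, Cyp26b1 and Cyp26c1. They were chosen by symbol, for their textbook roles, among the 22180 genes with a symbol of their own in the deposited array table. Earlier results of these data were known when they were chosen. Each of the 9 has 1 entry there, and no entry is shared with another gene. Cells take up retinol through the membrane receptor Stra6. Rdh10 oxidises retinol to retinaldehyde and Aldh1a2 oxidises retinaldehyde to RA, while Dhrs3 turns retinaldehyde back into retinol. Crabp1 and Crabp2 bind RA in the cytoplasm, and the cytochrome P450 enzymes Cyp26a1, Cyp26b1 and Cyp26c1 hydroxylate it for removal. Several of these genes, among them Cyp26a1 and Dhrs3, are known to be induced by RA, so that the pathway limits its own product. In the developing inner ear, local synthesis by Aldh1a enzymes and removal by Cyp26 enzymes set zones of high and low RA, and Cyp26b1 marks the central zone of the vestibular sensory patches.

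RNA was measured on 16 Affymetrix whole-transcript arrays from the mouse embryonic stem cell line iGPA-Myo7a:mVenus, which makes the transcription factors Gfi1, Pou4f3 and Atoh1 when given doxycycline (Dox) and reports Myo7a activity as mVenus fluorescence. All groups were grown as embryoid bodies (EBs, floating aggregates of differentiating stem cells) in medium with fetal bovine serum. From day 4 the EBs received Dox, or Dox and RA, and mVenus-positive cells were sorted as induced hair cell-like cells, or iHCs, after 4 days (day 8) or 8 days (day 12). Dox iHCs and Dox+RA iHCs have 3 arrays at each day. The control EBs of day 8 and day 12 (2 arrays each) carry the same transgenes but received neither Dox nor RA and were not sorted, so in any comparison with them treatment and sort cannot be told apart. There was no group with RA and without Dox, and no source used here gives the RA dose. The submitters describe the replicates as biological, each from its own RNA preparation, all from 1 line. Values are log2 signals, so a difference of 1 is a doubling. Probes differ in brightness, so levels were not compared between genes.

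The start regions of the 3 Cyp26 genes are shown because these are the RA-removing enzymes and because a motif search found its only match among the 9 genes there. The RefSeq promoter table (build GRCm38.p6) holds 7 of the 9 genes in 12 windows, each running from 250 bases before to 50 after a transcription start. Rdh10 and Crabp2 have no window in it. RA receptors bind direct repeats of a short half-site. The search, on both strands, was for a pair of half-sites in the same orientation with 1, 2 or 5 bases between them. A half-site was AGGTCA, the variant spelled AGTTCA, the variant spelled GGTTCA or that spelled GGGTCA, in any combination. The window of Cyp26a1 is chr19:37697558-37697857 on the + strand and that of Cyp26c1 is chr19:37685430-37685729, also on the + strand. In the gene order of that build Cyp26a1 comes directly after Cyp26c1. The window of Cyp26b1 is chr6:84593761-84594060 on the - strand. The capitals mark the match, and the sequences run 5′ to 3′ along each gene.
Cyp26a1: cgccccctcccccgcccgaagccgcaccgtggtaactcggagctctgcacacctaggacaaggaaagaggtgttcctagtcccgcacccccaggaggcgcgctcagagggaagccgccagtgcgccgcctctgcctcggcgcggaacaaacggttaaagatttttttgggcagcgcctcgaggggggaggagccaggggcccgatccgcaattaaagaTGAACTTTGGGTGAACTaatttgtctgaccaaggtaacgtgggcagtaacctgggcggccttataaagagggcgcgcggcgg
Cyp26b1: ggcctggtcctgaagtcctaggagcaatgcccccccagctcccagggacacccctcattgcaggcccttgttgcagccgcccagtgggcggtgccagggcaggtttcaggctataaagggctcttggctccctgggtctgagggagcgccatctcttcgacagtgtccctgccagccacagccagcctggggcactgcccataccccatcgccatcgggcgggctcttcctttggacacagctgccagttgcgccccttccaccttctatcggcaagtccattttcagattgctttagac
Cyp26c1: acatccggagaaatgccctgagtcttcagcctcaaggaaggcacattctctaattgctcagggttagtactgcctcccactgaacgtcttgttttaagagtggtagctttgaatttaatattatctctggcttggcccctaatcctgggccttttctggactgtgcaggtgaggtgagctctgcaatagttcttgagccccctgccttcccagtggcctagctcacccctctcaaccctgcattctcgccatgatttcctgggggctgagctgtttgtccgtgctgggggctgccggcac
The match in Cyp26a1 is on the strand opposite to the gene, where it reads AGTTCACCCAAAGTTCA, with a spacing of 5, at positions -32 to -16 from the start. A repeat with this spacing occurs in 32 of 32851 windows of the table (0.0974%), and one with any of the 3 spacings in 0.588%. A match is a description of letters, not of binding, and the absence of one in the other windows says nothing about the receptors.

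The arrays resembled each other closely within a group (correlations from 0.982 to 0.995). The induced factors Gfi1, Pou4f3 and Atoh1 stood between 10.87 and 11.51 on all iHC arrays, against 4.66 to 6.72 in control EBs, although their probes may read the transgenes. Of 12 hair cell markers 11 were higher in each iHC group than in the control EBs of its day. The list holds Gfi1, Pou4f3 and Atoh1, which Dox induces, and Myo7a, whose reporter was used for the sort. Their rise was set by the design. All 10 mesenchyme, 8 mesoderm and heart and 5 endothelial markers were lower. Neuron markers rose too, by the test given below. Of 10, 8 were called higher and 0 lower in Dox iHCs of day 8, and 7 and 1 at day 12. In Dox+RA iHCs the counts were 7 and 0 at day 8 and 5 and 1 at day 12. Of all genes 15.7% and 19.2% were called higher in Dox iHCs of the 2 days, and 19.6% and 22.4% in Dox+RA iHCs. The table has no detection calls, and no marker can be said to be at 0.

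**Figure D1:**
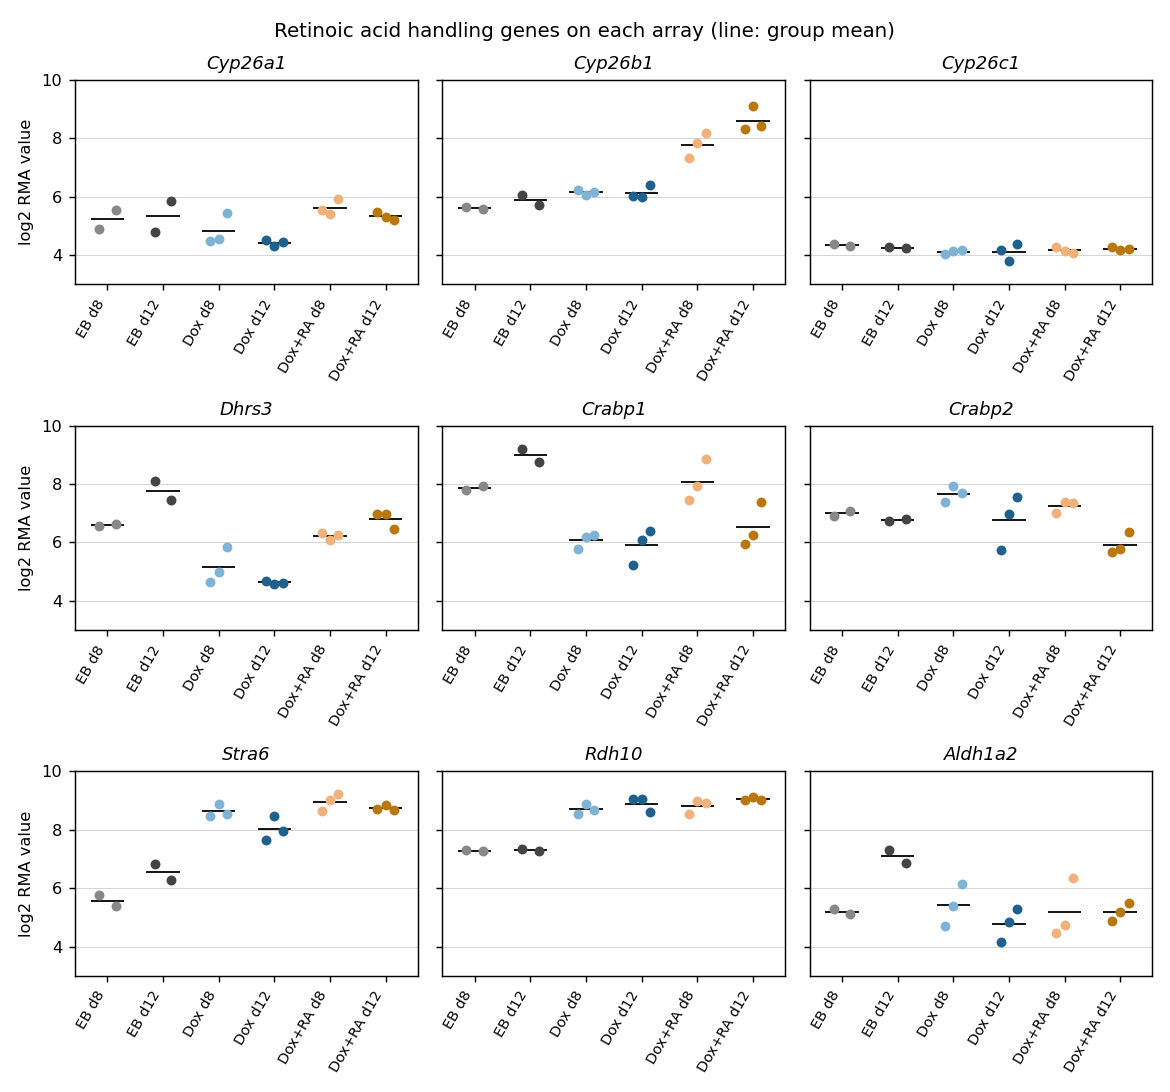
Log2 signal of the 9 RA genes on every array, by group and day; points are arrays and bars group means. Cyp26b1 on the Dox+RA arrays lies between 7.32 and 9.09, above all 10 other arrays, while Cyp26c1 stays between 3.80 and 4.40 in all groups.

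The comparison of Dox+RA iHCs with Dox iHCs asks what RA changes among these genes when both groups were induced and sorted alike. The RA-degrading enzyme gene Cyp26b1 and the retinaldehyde reductase gene Dhrs3 rose at both days, and the RA-binding gene Crabp1 rose at day 8. None of the 9 was called lower at either day. The genes of uptake and synthesis, Stra6, Rdh10 and Aldh1a2, did not pass the test at either day. A gene counts as called where the p of limma's moderated test, adjusted by Benjamini-Hochberg over the 22180 genes, is under 0.05. At day 8, 3 of the 9 were called higher and 0 lower, where 4.93% of all genes were called (2.05% higher, 2.89% lower). At day 12, 2 of the 9 were called higher and 0 lower, where 0.924% of all genes were called (0.383% higher, 0.541% lower). The median difference of the 9 was 0.32 at day 8 and 0.63 at day 12, against 0.016 and 0.028 over all genes.

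Cyp26b1, which clears RA in many embryonic tissues, stood at 6.22, 6.05 and 6.17 in Dox iHCs of day 8 and at 7.32, 7.84 and 8.18 in Dox+RA iHCs. At day 12 it stood at 6.02, 5.98 and 6.4 without RA and at 8.32, 9.09 and 8.41 with RA. Every Dox+RA array exceeded every Dox array at both days, by at least the width of the spread within either group. The difference was 1.63 ± 0.21 at day 8 (limma standard error, adjusted p = 0.0007), a 3.10-fold rise with a 95% interval of 2.26 to 4.24. At day 12 it was 2.47 ± 0.21 (adjusted p = 3.5e-05), a 5.54-fold rise (4.04 to 7.59). Across the 6 groups Cyp26b1 was highest in Dox+RA iHCs of day 12, then in Dox+RA iHCs of day 8, with no overlap between these or with the groups below. Dox iHCs of day 8 overlapped with Dox iHCs of day 12, and these with control EBs of day 12. Control EBs of day 8 were lowest and overlapped with no other group.

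Cyp26a1, the enzyme gene that carries the repeat shown above, gave 4.47, 4.56 and 5.44 in Dox iHCs of day 8 and 5.53, 5.39 and 5.93 in Dox+RA iHCs. At day 12 the values were 4.53, 4.32 and 4.43 without RA and 5.46, 5.30 and 5.21 with RA. The groups overlapped at day 8 through replicate 3 of the Dox iHCs and did not overlap at day 12. The differences, 0.80 ± 0.27 at day 8 (adjusted p = 0.12) and 0.89 ± 0.27 at day 12 (adjusted p = 0.17), did not pass the test. Without replicate 3 of the Dox iHCs of day 8 the difference at that day was 1.10 (adjusted p = 0.043 in limma). Replicate 3 of the Dox+RA iHCs, also the highest of its group (5.93), stayed in that fit. In a fit of only the groups compared the adjusted p at day 12 was 0.031. With array weights the difference at day 8 was also called, narrowly. All neighbours overlapped in the order of the 6 groups. Cyp26c1 varied little: its group means spanned 0.24, from 4.11 ± 0.07 (SD, n = 3) in Dox iHCs of day 8 to 4.35 ± 0.03 (n = 2) in control EBs of day 8. That is below the median of all deposited values (4.75), and the RA differences were 0.06 ± 0.12 and 0.08 ± 0.12 (adjusted p = 0.85 and 0.84).

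Dhrs3, which returns retinaldehyde to retinol, stood at 4.65, 4.97 and 5.86 in Dox iHCs of day 8 and at 6.31, 6.08 and 6.24 in Dox+RA iHCs. At day 12 it stood at 4.68, 4.59 and 4.63 without RA and at 6.98, 6.97 and 6.46 with RA. The groups did not overlap at either day, and at day 8 replicate 3 of the Dox iHCs was the one nearest to the Dox+RA arrays. The rise was 1.05 ± 0.24 at day 8 (adjusted p = 0.023), or 2.07-fold (1.44 to 2.97), and 2.17 ± 0.24 at day 12 (adjusted p = 0.00049), or 4.50-fold. The call of day 8 was lost in a fit of only the groups compared (adjusted p = 0.072). It was also lost without replicate 1 or 2 of the Dox iHCs (0.061 and 0.11) and without replicate 1, 2 or 3 of the Dox+RA iHCs (0.079, 0.055 and 0.06).

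The same replicate 3 of the Dox iHCs of day 8 was the highest of its group for the summed mesenchyme markers (8.96 on the log2 scale, against 8.35 and 8.56) and for the summed endoderm and yolk sac markers (9.45 against 8.65 and 8.91). It was also the highest of its group for mesoderm and heart markers (8.36 against 7.80 and 8.09). The Dox+RA arrays of day 8 lay at 8.06 to 8.24, 8.54 to 8.61 and 7.75 to 7.94 for the 3 lists. For the endothelial markers replicate 3 of the Dox iHCs of day 8 was instead the lowest (8.25 against 8.65 and 8.98). It was the lowest too for neuron (10.7 against 11.5 and 11.34) and hair cell markers (13.16 against 13.39 and 13.18). For surface epithelium markers it was the highest (10.61 against 9.929 and 10.29). For neural progenitor and neural crest markers it lay between the others of its group. At day 12 replicate 3 of the Dox iHCs was again the highest of its group for mesenchyme (8.78), endoderm (9.50) and mesoderm markers (8.365). Its Dhrs3 (4.63) and Cyp26a1 (4.43) lay there between replicates 1 and 2. Between Dox+RA and Dox iHCs of day 8, 1 of 10 mesenchyme markers was called lower (Pdgfrb, -1.11) and 0 of 8 endoderm and 0 of 8 mesoderm markers were called in limma (2 of each with an unadjusted p under 0.05). In bulk RNA, fewer cells of a type and less RNA per cell cannot be told apart, and the part of these cells in the values of Dhrs3 and Cyp26a1 was not tested.

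Crabp1, one of the pair of cytoplasmic RA-binding proteins, stood at 5.78, 6.20 and 6.27 in Dox iHCs of day 8 and at 7.46, 7.92 and 8.86 in Dox+RA iHCs. All Dox+RA arrays were above all Dox arrays, and they were spread more widely. The rise of 2.0 ± 0.38 (adjusted p = 0.0083) was 4.00-fold, with an interval of 2.27 to 7.03. At day 12 Crabp1 gave 5.23, 6.08 and 6.39 without RA and 5.96, 6.25 and 7.37 with RA. Here the groups overlapped, and the difference of 0.63 ± 0.38 (adjusted p = 0.56) did not pass the test. The replicates of Dox+RA iHCs of day 8 kept the same order in Crabp1 and in the summed neural progenitor markers, which stood at 10.05, 10.38 and 10.71, against 10.04 to 10.18 in Dox iHCs. Of those 8 markers 0 were called higher and 1 lower (Nes, -0.69). The summed surface epithelium markers of the Dox+RA iHCs of day 8 kept that order too (10.08, 10.57 and 10.93). In Dox iHCs of day 8 the progenitor sums (10.04, 10.18 and 10.07) did not follow the order of Crabp1. At day 12 they did, in Dox iHCs (9.39, 9.48 and 9.515) and in Dox+RA iHCs (9.31, 9.60 and 9.82). The part of progenitors in the Crabp1 values was not tested.

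Crabp2, the binding protein that passes RA to its receptors, was not called at either day. At day 8 it stood at 7.37, 7.93 and 7.68 without RA and at 7.0, 7.39 and 7.34 with RA, a difference of -0.41 ± 0.33 (adjusted p = 0.57). At day 12 it stood at 5.75, 6.98 and 7.54 without RA and at 5.67, 5.76 and 6.35 with RA, a difference of -0.83 ± 0.33 (adjusted p = 0.31). The Dox group of day 12 was the most scattered group of any of the 9 genes apart from Aldh1a2 in Dox+RA iHCs of day 8 (SD 0.92 and 1.02), and its replicate 1 lay among the Dox+RA arrays. Without that array the difference was -1.33 (adjusted p = 0.0082 in limma). Replicate 1 was also the lowest of the Dox+RA iHCs (5.67) and stayed in that fit. Replicate numbers were taken to pair the iHC arrays, so this fit breaks a pair and cannot show a larger difference.

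On the supply side, the retinol receptor gene Stra6 stood at 8.47, 8.90 and 8.55 in Dox iHCs of day 8 and at 8.64, 9.01 and 9.24 with RA, and the groups overlapped. At day 12 it stood at 7.65, 8.47 and 7.97 without RA and at 8.72, 8.86 and 8.69 with RA. The groups did not overlap at day 12, but the difference of 0.73 ± 0.21 did not pass the test (adjusted p = 0.13). Rdh10, the retinol dehydrogenase gene, differed by 0.11 (95% interval -0.18 to 0.39) at day 8 and by 0.16 (-0.13 to 0.44) at day 12. For Aldh1a2, which makes RA itself, the intervals were wide: -1.15 to 0.71 at day 8 and -0.51 to 1.35 at day 12. Its arrays ran from 4.70 to 6.13 in Dox iHCs and from 4.48 to 6.36 in Dox+RA iHCs of day 8.

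All Dox+RA arrays exceeded all Dox arrays for 3 of the 9 genes at day 8, where 11.9% of all genes did so. At day 12 this held for 4 of the 9, where 9.78% of all genes did so. The reverse order held for 0 of the 9 at either day, against 12.0% and 6.07% of all genes.

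**Figure D2:**
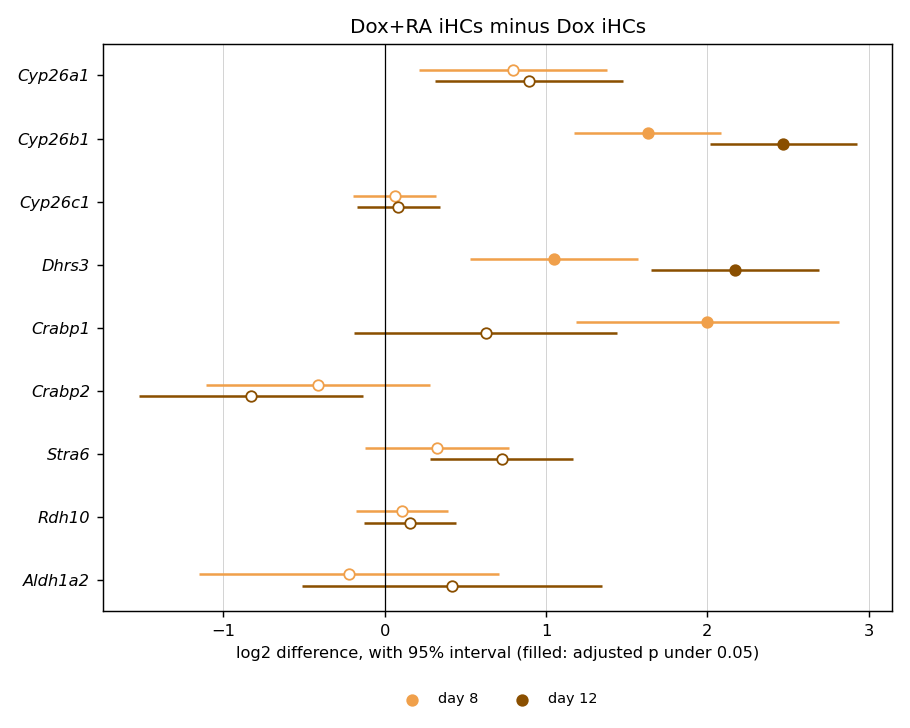
Log2 difference of Dox+RA iHCs from Dox iHCs for the 9 genes at day 8 and day 12, with 95% intervals from limma; filled points have an adjusted p under 0.05. Cyp26b1 (1.63 and 2.47) and Dhrs3 (1.05 and 2.17) are filled at both days, and Crabp1 (2.0) at day 8.

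Whether the RA difference itself changed from day 8 to day 12 was tested as an interaction. Of the 9 genes 0 were called in limma, where 2 genes of the whole table were (0.00902%), and 3 of the 9 had an unadjusted p under 0.05. These were Dhrs3, whose RA difference at day 12 minus that at day 8 was 1.12 ± 0.34 (adjusted p = 0.65), Cyp26b1, with 0.84 ± 0.30 (adjusted p = 0.75), and Crabp1, with -1.37 ± 0.54 (adjusted p = 0.81). The call of Crabp1 at day 8 and its absence at day 12 are therefore not shown to differ.

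Other genes of the pathway were counted from 3 lists. Of all genes 2.05% were called higher and 2.89% lower with RA at day 8, and 0.383% and 0.541% at day 12. Of 34 further genes of retinoid handling 33 were measured. With RA at day 8, 1 was called higher (Lrat, which stores retinol as ester, 0.60 ± 0.10, adjusted p = 0.0042) and 2 lower. The lower ones were Adh5, an alcohol dehydrogenase (-0.72 ± 0.12, adjusted p = 0.0034), and Rbp3, the retinoid-binding protein of the photoreceptor matrix (-1.10 ± 0.19, adjusted p = 0.005). At day 12 only Lrat was called of the 33 (0.50 ± 0.10, adjusted p = 0.029). The highest group means of Lrat (4.702) and Rbp3 (4.74) lay below the median of all deposited values (4.747), so both are dim, as Cyp26c1 is. Of the 6 RA receptor genes, Rxra was called lower at day 8 (-0.50 ± 0.11, adjusted p = 0.017) and 0 were called at day 12 in limma (3 with an unadjusted p under 0.05). Rarb, a receptor gene that RA is known to induce, differed by 0.74 (adjusted p = 0.13) and 1.0 (adjusted p = 0.1).

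Among 12 known RA targets, a list that holds Rarb again, 10 were measured and 3 rose at each day, the same genes: Hoxb5, Hoxb4 and Meis2. Of all genes 2.05% were called higher at day 8 and 0.383% at day 12. Hoxb5 rose by 2.85 ± 0.18 at day 8 and 2.31 ± 0.18 at day 12 (adjusted p = 1.9e-06 and 2.4e-05). Hoxb4 rose by 1.76 ± 0.21 at both days, and the homeobox cofactor Meis2 by 1.10 ± 0.13 and 0.66 ± 0.13. Hox genes of this kind set position along the body axis and are long known to respond to RA. The median difference of the list was 0.57 at day 8 and 0.49 at day 12.

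**Figure D3:**
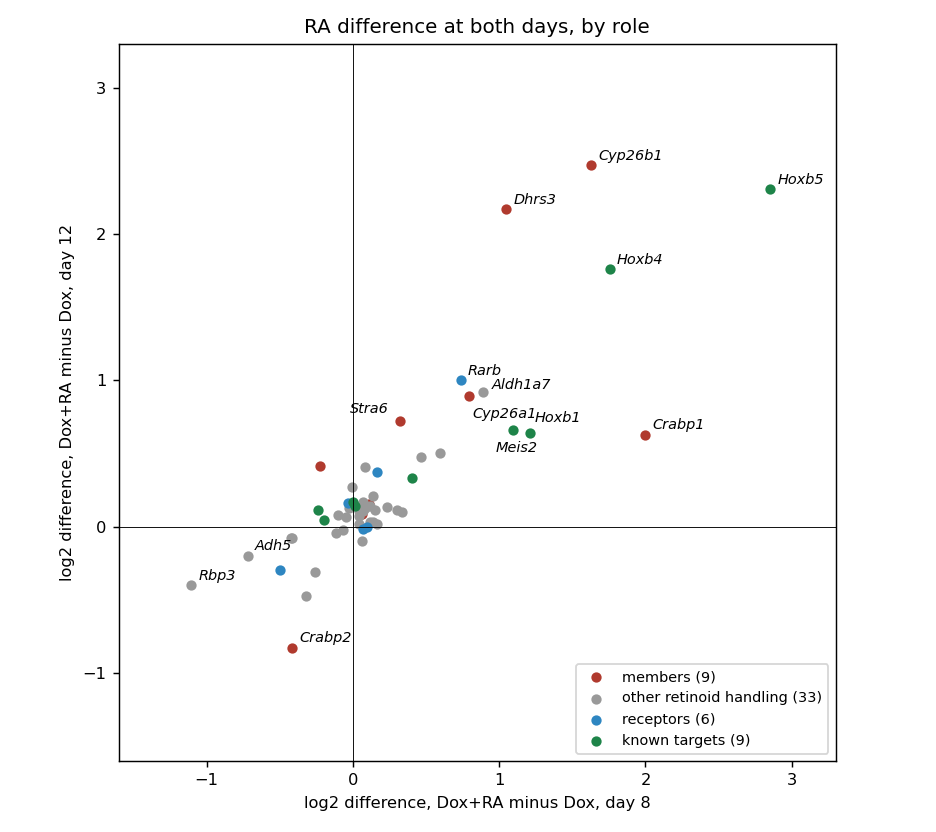
Log2 difference of Dox+RA from Dox iHCs at day 8 (horizontal) and day 12 (vertical) for the 9 genes and the 3 other lists; each point is a gene, and Rarb, which stands in both the receptor and the target list, is drawn as a receptor. Hoxb5, Hoxb4, Cyp26b1 and Dhrs3 are above 1 at both days, and Crabp1 is at 2.0 on the axis of day 8 and 0.63 on that of day 12.

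Markers of hair cells also moved with RA at day 8, when 5 of 12 were called higher, among them Otof (1.77), Cdh23 (1.10), Myo7a (1.02), Lhx3 (0.89) and Espn (0.52). Of all genes 2.05% were called higher at that day. Their summed log2 level ran from 13.16 to 13.39 in Dox iHCs and from 13.58 to 13.60 in Dox+RA iHCs of day 8. The induced factors Gfi1, Pou4f3 and Atoh1 weigh most in these sums (group means 11.05, 11.31 and 10.93 in Dox iHCs of day 8). Their probes may read the transgenes, so the sums are not a measure of hair cell state alone. At day 12, 0 of 12 were called in limma (2 with an unadjusted p under 0.05), and the ranges were 13.27 to 13.59 and 13.41 to 13.58. Whether the differences of the RA genes follow the state of the sorted cells was not tested.

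Compared with control EBs, Stra6 and Rdh10 were higher in all 4 iHC groups, and Dhrs3 and Crabp1 were lower in Dox iHCs at both days. In Dox iHCs of day 8, 2 of the 9 genes were called higher and 2 lower, where 34.6% of all genes were called (15.7% higher, 18.9% lower). In Dox iHCs of day 12 the counts were 2 and 4, where 40.8% of all genes were called (19.2% higher, 21.7% lower). In Dox+RA iHCs of day 8 they were 3 and 0, where 41.6% of all genes were called (19.6% higher, 22% lower). In Dox+RA iHCs of day 12 they were 3 and 3, where 44.8% were called (22.4% higher, 22.4% lower). Read against such shares of all genes, the counts alone are not a result about these genes. The comparisons of Dox and of Dox+RA iHCs share the control arrays of their day.

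Stra6 stood at 5.76 and 5.39 in control EBs of day 8 and at 6.82 and 6.29 in those of day 12, below every iHC array, of which the lowest was 7.65. In Dox iHCs it was 8.35-fold higher at day 8 (3.06 ± 0.23, adjusted p = 9.7e-08) and 2.78-fold higher at day 12 (1.48 ± 0.23, adjusted p = 9.5e-05). In Dox+RA iHCs the log2 differences were 3.39 ± 0.23 and 2.20 ± 0.23. Rdh10 was steadier. Its control arrays lay between 7.26 and 7.33 and its iHC arrays between 8.54 and 9.13. The differences of the 4 iHC groups from their controls lay between 1.41 and 1.76, or 2.66-fold to 3.38-fold, each with a standard error of 0.15. Within the iHC groups all neighbours in the order of Rdh10 overlapped, as did those of Stra6.

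Aldh1a2 behaved unlike these. It stood at 5.28 and 5.12 in control EBs of day 8 and at 7.32 and 6.85 in those of day 12, while the iHC arrays ran from 4.17 to 6.36 over both days. At day 8 the iHC groups overlapped with the control. At day 12 Aldh1a2 was lower than in control EBs by a log2 difference of -2.32 ± 0.49 in Dox iHCs (adjusted p = 0.0012) and -1.91 ± 0.49 in Dox+RA iHCs (adjusted p = 0.0047). The call in Dox+RA iHCs was lost without replicate 1 of the control EBs of day 12 (adjusted p = 0.053). Aldh1a2 is a gene of mesoderm and mesenchyme in embryos. The 10 mesenchyme markers, all lower in iHCs, had a summed log2 level of 12.36 to 12.67 in control EBs of day 8, 12.99 to 13.00 in those of day 12 and 8.06 to 8.96 on the iHC arrays, and their part in this difference was not tested.

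Dhrs3 and Crabp1 were lower in Dox iHCs than in control EBs at both days. For Dhrs3 the control arrays were 6.55 and 6.62 at day 8 and 8.10 and 7.45 at day 12. The differences were -1.42 ± 0.27 at day 8 (adjusted p = 0.00072) and -3.14 ± 0.27 at day 12 (adjusted p = 2.3e-07). Crabp1, at 7.80 and 7.95 in control EBs of day 8 and 9.21 and 8.75 in those of day 12, differed by -1.79 ± 0.43 (adjusted p = 0.0037) and -3.08 ± 0.43 (adjusted p = 2.8e-05). With RA, neither gene was called against control EBs at day 8: Dhrs3 differed by -0.38 (95% interval -0.96 to 0.21) and Crabp1 by 0.21 (-0.70 to 1.12). At day 12 both were lower with RA too, Crabp1 by a log2 difference of -2.45 ± 0.43 (adjusted p = 0.00021) and Dhrs3 by one of -0.97 ± 0.27 (adjusted p = 0.0087). Without replicate 1 of the control EBs of day 12 the Dhrs3 difference was -0.64 (adjusted p = 0.14).

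Cyp26b1 was called higher than in control EBs only in the groups with RA, by 2.17 ± 0.24 at day 8 (4.50-fold, adjusted p = 2.6e-06) and 2.72 ± 0.24 at day 12 (6.58-fold, adjusted p = 2.1e-07). Without RA it differed by 0.54 ± 0.24 (adjusted p = 0.098) and 0.25 ± 0.24 (adjusted p = 0.46), and the direct comparison of Dox+RA with Dox iHCs is given above. Cyp26a1 was lower in Dox iHCs than in control EBs at day 12, with -0.89 ± 0.31 (adjusted p = 0.029). Its control arrays of day 12, 4.81 and 5.84, were far apart, and without replicate 2 of them the difference was -0.38 (adjusted p = 0.45). The call was also lost without replicate 2 or replicate 3 of the Dox iHCs of day 12 (adjusted p = 0.073 and 0.051). Crabp2 was not called in any of these comparisons. In Dox+RA iHCs of day 12 it differed by -0.84 ± 0.36 (adjusted p = 0.075). With the replicate block this was -1.01 (adjusted p = 0.0067), and without replicate 3 of the Dox+RA iHCs of day 12 the adjusted p was 0.042. Cyp26c1 was not called in any of them. In a fit of only the groups compared, Cyp26b1 and Crabp2 were also called in Dox iHCs of day 8 (adjusted p = 0.0064 and 0.02), Dhrs3 in Dox+RA iHCs of day 8 (0.032) and Crabp2 in Dox+RA iHCs of day 12 (0.0091).

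**Figure D4:**
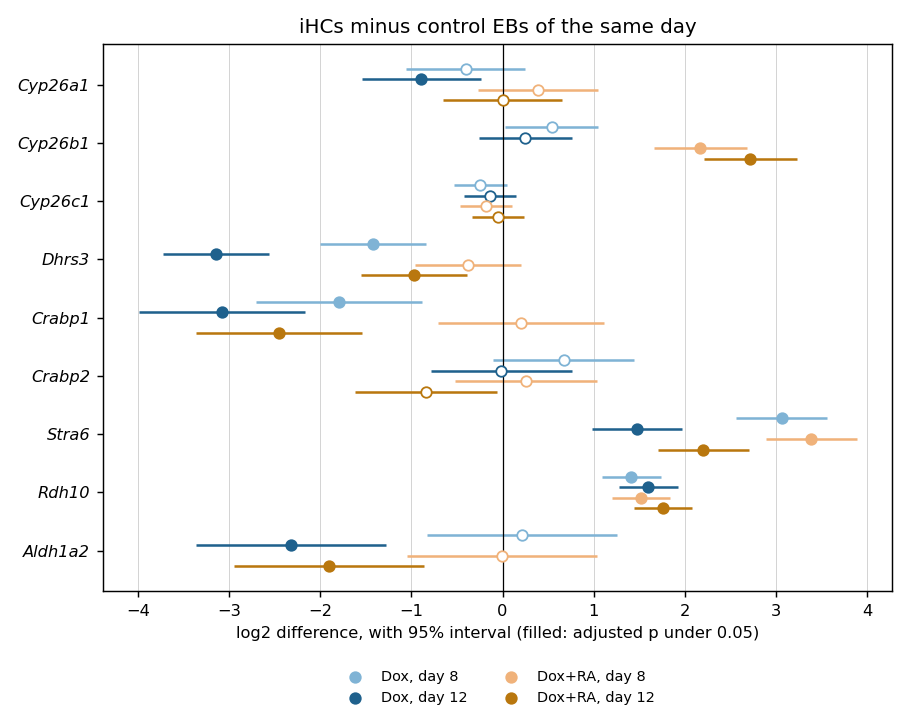
Log2 difference of each iHC group from the control EBs of its day for the 9 genes, with 95% intervals from limma; filled points have an adjusted p under 0.05. Stra6 and Rdh10 are filled above 0 in all 4 comparisons, Cyp26b1 in both with RA, and Dhrs3 and Crabp1 lie below 0 in Dox iHCs at both days.

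Of the 33 other genes of retinoid handling, 1 was called higher and 8 lower in Dox iHCs of day 8, and 2 and 8 at day 12. In Dox+RA iHCs 6 were called higher and 7 lower at day 8, and 5 and 6 at day 12. Of all genes 15.7% were called higher and 18.9% lower in Dox iHCs of day 8, and 19.2% and 21.7% at day 12. In Dox+RA iHCs the shares were 19.6% and 22% at day 8, and 22.4% and 22.4% at day 12. Read against such shares, the counts of this list and of the receptors and targets below are not by themselves a result about these genes. The retinol carrier gene Rbp4 was lower in Dox iHCs by log2 differences of -2.65 and -1.66 at the 2 days and its plasma partner transthyretin (Ttr), also an endoderm marker, by -2.52 and -1.36. Fabp5, which can carry RA to another nuclear receptor, differed by -1.32 and -2.04. Of the 6 receptor genes 1 was called higher and 2 lower in Dox iHCs at each day, and 2 and 2 in Dox+RA iHCs. Rarb was among the lower ones in Dox iHCs (-1.72 and -2.77). Of the 10 targets measured, 3 were called higher and 3 lower in Dox iHCs of day 8, 3 and 4 at day 12, and 5 and 3, then 4 and 3, in Dox+RA iHCs.

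Changes from day 8 to day 12 were tested in each kind of sample. In Dox iHCs 0 of the 9 were called in limma, where 8.05% of all genes were, and 3 of the 9 had an unadjusted p under 0.05. Crabp2 differed by -0.90 ± 0.33 (adjusted p = 0.11), or adjusted p = 0.02 with the replicate block, which called 14.2% of all genes, and 0.0098 without replicate 3 of the Dox iHCs of day 12. Stra6 differed by -0.61 ± 0.21 (adjusted p = 0.091), or -0.83 (adjusted p = 0.034) without replicate 2 of the Dox iHCs of day 12. Dhrs3 differed by -0.53 ± 0.24 (adjusted p = 0.23).

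In Dox+RA iHCs 1 of the 9 rose and 2 fell over time, where 4.38% of all genes were called (1.78% higher, 2.61% lower). Cyp26b1 rose by 0.83 ± 0.21 (adjusted p = 0.041), Crabp1 changed by -1.55 ± 0.38 (adjusted p = 0.033) and Crabp2 by -1.32 ± 0.33 (adjusted p = 0.034). The arrays of the days did not overlap for any of the 3 genes. All 3 calls were lost without replicate 1 of day 12 (adjusted p = 0.051, 0.14 and 0.13), without replicate 2 of day 12 (0.18, 0.14 and 0.13) and without replicate 2 of day 8 (0.11, 0.085 and 0.12). Without replicate 1 of day 8 the calls of Cyp26b1 and Crabp2 were lost (0.14 and 0.0504), and without replicate 3 of day 8 those of Crabp1 and Crabp2 (0.13 and 0.097). In a fit of only these groups Cyp26b1 and Crabp1 were not called (0.12 and 0.081). Dhrs3 differed by 0.59 ± 0.24 with no overlap of the days (adjusted p = 0.21), and with array weights it was called as well (0.037).

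In control EBs 2 of the 9 rose, where 3.75% of all genes were called (2.33% higher, 1.42% lower): Dhrs3 by 1.19 ± 0.30 (2.28-fold, adjusted p = 0.039) and Stra6 by 0.98 ± 0.25 (1.97-fold, adjusted p = 0.047). Aldh1a2 differed by 1.89 ± 0.53 (adjusted p = 0.071) and Crabp1 by 1.10 ± 0.47 (adjusted p = 0.29). With the replicate block the adjusted p was 0.0017 for Aldh1a2 and 0.027 for Crabp1. With 2 arrays at each day, the calls rest on single arrays. Dhrs3 was not called without replicate 1 of day 8 (0.13), replicate 1 of day 12 (0.42) or replicate 2 of day 8 (0.2). Stra6 was not called without the same arrays (0.054, 0.46 and 0.42), in a fit of only the groups compared (0.062), or with the arrays centred on their medians (0.053).

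The change over time in iHCs was also set against that in control EBs, in a pair of interaction terms chosen after the data were seen. For Dox iHCs 2 of the 9 genes, Dhrs3 and Stra6, were called lower and 0 higher, where 2.84% of all genes were called (1.03% higher, 1.81% lower). Dhrs3 went from 6.58 ± 0.05 to 7.77 ± 0.46 (SD, n = 2) in control EBs and from 5.16 ± 0.63 to 4.63 ± 0.05 (n = 3) in Dox iHCs. For Dox+RA iHCs 1 of the 9, Crabp1, was called lower and 0 higher, where 2.62% of all genes were called (0.956% higher, 1.67% lower). Stra6 had a difference in change of -1.18 ± 0.33 there, which did not pass the limma test (adjusted p = 0.077). It was called in a fit of only the groups compared (0.048) and without replicate 1 of the Dox+RA iHCs of day 8 (0.047). Crabp1 went from 7.87 ± 0.10 to 8.98 ± 0.32 in control EBs and from 8.08 ± 0.71 to 6.53 ± 0.75 in Dox+RA iHCs. Aldh1a2, whose level in control EBs went from 5.20 ± 0.11 to 7.09 ± 0.33, had a difference in change of -2.54 ± 0.69 for Dox iHCs (adjusted p = 0.066, 0.002 with the replicate block). The block also called Aldh1a2 for Dox+RA iHCs (0.013) and Crabp1 for Dox iHCs (0.042), which brought the counts to 4 of the 9 for Dox iHCs and 2 for Dox+RA iHCs, where it called 6.45% and 5.18% of all genes. Without replicate 1 of the Dox iHCs of day 8 Aldh1a2 was called for Dox iHCs (0.032), as it was without replicate 3 of those of day 12 (0.034). It was also called there in a limma fit of only the groups compared (0.047) and with array weights (0.026). The calls of Dhrs3, Stra6 and Crabp1 without the block each end when 1 of several arrays is left out: without replicate 1 of the control EBs of day 12 the adjusted p was 0.15 for Dhrs3, 0.11 for Stra6 and 0.15 for Crabp1.

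As a description of the pattern over the 16 arrays, which fall into 6 groups and are not independent points, the 2 genes of highest Pearson correlation were found for each of the 9. Cyp26b1 was most like Cib3, a calcium-binding protein gene of vestibular hair cells (r = 0.942), and Acpp (0.936). The group means of Cib3 were 4.21 and 3.99 in control EBs of day 8 and day 12, 5.70 and 6.09 in Dox iHCs and 8.16 and 8.76 in Dox+RA iHCs. Stra6 was most like Tle5 (0.973) and Qsox1 (0.967), and Rdh10 like Rassf4 and Lrrn2 (both 0.989). Crabp1 was most like Tns3 (0.953) and Cyp2j6 (0.924), Dhrs3 like Thsd4 (0.910) and the matrix protease gene Adamts4 (0.898), and Aldh1a2 like Gfra1 (0.910) and Slc36a1 (0.896). For Crabp2 they were Rexo5 (0.939) and Uspl1 (0.937), for Cyp26a1 Mylk3 (0.789) and Il17rc (0.781), and for Cyp26c1 Xlr3b (0.809) and Creg2 (0.803). Among the 9 themselves the highest correlations were those of Stra6 with Rdh10 (0.910) and of Dhrs3 with Crabp1 (0.707), and the lowest that of Crabp1 with Rdh10 (-0.632).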

How the data were processed

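Total RNA of 16 samples was hybridised to 1 array each. The deposited values are log2 signals that the authors computed by RMA in Affymetrix Expression Console. This is per the submitters' processing notes, with no version given. RMA corrects background, gives the arrays 1 distribution and summarises probes, and it compresses differences at low signal. Values ran from 1.44 to 12.26 and array medians from 4.67 to 4.82. The number of arrays limits the precision, and no strip or scan date is given in the sources used here.

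Of 33708 entries 23521 carry 1 symbol, 1814 several and 8373 none; only the first were used, with the entry of highest mean for the 1082 genes with several. The 22180 genes so named entered 1 fit with limma 3.58.1 in R 4.3.3 (lmFit, contrasts.fit, eBayes) with a mean for each of 6 groups, which share 1 estimate of spread, and ± beside a difference is limma's standard error. There were 12 comparisons, 2 of them, the changes over time in iHCs minus that in control EBs, added after the data were seen. The procedure was tested on simulated data. Python 3.11.15 with pandas 2.3.3 drew up the tables and matplotlib 3.10.9 the plots.

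The 9 genes, the other lists and the tests were chosen with earlier results of these data known. All 9 are named in every comparison, with up to 4 called genes of each list in each direction and the 2 most alike genes of each; values of Rarb, Rbp4, Ttr, Fabp5 and the markers were added after they were seen. Of the remaining marker lists, with RA at day 8, 1 of 10 neuron, 0 of 4 neural crest, 0 of 6 surface epithelium and 0 of 5 endothelial markers were called in limma (unadjusted p under 0.05 in 3, 1, 0 and 0). At day 12 the neural crest list had 1 call (Sox10, -0.79) and the other lists 0.

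Replicate numbers were checked for pairing. After group means were removed, all 18 pairs of iHC arrays with the same number correlated at 0.147 to 0.513, and the 36 pairs with other numbers at -0.415 to 0.201, so the numbers were taken to pair the iHC arrays. The labels name no shared batch, and the replicate block, a term for each number, is an alternative. The block was fitted over all 16 arrays, so it joins control EBs to iHC arrays by number too. Control and iHC arrays with the same number correlated only at 0.026 to 0.143, and their pairing was not shown. The others were a fit of only the groups compared, trend and robust eBayes, array weights, a filter on dim genes (a group mean above 4.75), the mean of all entries, arrays centred on their median, and each array left out. Arrays were left out singly, so those of the same number in other groups stayed in the fit.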

Additional observations from a re-analysis of the deposited data

Results flagged for a closer look

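The change from day 8 to day 12 differed between iHCs and control EBs for 3 of the 9 genes, by interaction terms in limma that were chosen after the data were seen. Dhrs3 changed by 1.19 in control EBs (adjusted p = 0.039) and by -0.53 in Dox iHCs, which did not pass the test (adjusted p = 0.23). The change in Dox iHCs minus that in control EBs was -1.72 ± 0.39 (adjusted p = 0.027, 0.0077 to 0.15 over the alternatives). For Stra6 the changes were 0.98 (adjusted p = 0.047) and -0.61 (adjusted p = 0.091, not passing the test), and the difference between them was -1.585 ± 0.33 (adjusted p = 0.017, 0.0067 to 0.11). In this comparison 2.84% of all genes were called. For Dox+RA iHCs the Stra6 difference in change was -1.18 ± 0.33, which did not pass the limma test (adjusted p = 0.077, 0.047 to 0.35 over the alternatives). The change of Crabp1 in Dox+RA iHCs minus that in control EBs was -2.66 ± 0.60 (adjusted p = 0.029, 0.00069 to 0.15), where 2.62% of all genes were called.

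All 3 calls were lost without replicate 1 of the control EBs of day 12 (adjusted p = 0.15 for Dhrs3, 0.11 for Stra6 and 0.15 for Crabp1) and without replicate 2 of those of day 8 (0.095, 0.11 and 0.1). Dhrs3 was also lost without replicate 1 of the control EBs of day 8 (0.072) and without replicate 2 of the Dox iHCs of day 12 (0.06), and in a fit of only the groups compared (0.074). Crabp1 was lost without replicate 1 of the control EBs of day 8 (0.08), replicate 2 of those of day 12 (0.059), replicate 1 or 2 of the Dox+RA iHCs of day 12 (0.071 and 0.076), and replicate 2 or 3 of those of day 8 (0.053 and 0.055). No group had the 4 arrays needed to look for single outlying values.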

How the results depend on the processing

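Of 1464 values of the 9 genes under alternatives, 0 changed sign while called, 49 lost their call and 30 gained one. With RA, Cyp26b1 at both days (1.43 to 1.86 and 2.23 to 2.64), Dhrs3 at day 12 (2.08 to 2.34) and Crabp1 at day 8 (1.61 to 2.31) kept their calls under all 13 alternatives. Counts of called genes moved most over time. From day 8 to day 12 in Dox+RA iHCs the count of 3 became 1 in a fit of only the groups compared and 4 with array weights, and 0 to 3 with single arrays left out. In Dox iHCs the count of 0 became 1 with the replicate block and 1 with array weights, and 0 to 1 with arrays left out. In control EBs the count of 2 became 4 with the replicate block and 1 with arrays centred on their median, and 0 to 2 with arrays left out. The replicate block, which joins all arrays of a number, left the counts at 3 and 2 for RA at day 8 and day 12. The calls over all genes rose with it from 1094 to 2436 and from 205 to 722. With array weights they were 2277 and 635, with 4 and 2 of the 9 called, and at day 12 only 29 genes were called in a fit of only the groups compared. The cause of these changes was not tested. Cyp26c1 did not pass the filter on dim genes.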
